A study of Mus musculus with 10 samples.

Results

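The Reelin signalling genes Reln, Dab1, Fyn, Src, Crk, Crkl, Rapgef1, Pafah1b1 and Nck2 were followed in bulk RNA-seq of mouse cortex. They were chosen by symbol and make up 9 of the 53700 gene identifiers with deposited counts. Reelin is a large secreted glycoprotein that binds VLDLR and APOER2, the product of Lrp8, on the surface of neurons. Clustering of these receptors activates the Src family kinases FYN and SRC, which phosphorylate the receptor-bound adaptor DAB1 on tyrosines. Phosphorylated DAB1 then gathers the adaptors CRK and CRKL, which carry the RAP1 exchange factor encoded by Rapgef1, and also the adaptor NCK2 and the dynein regulator LIS1, encoded by Pafah1b1. In the developing cortex this relay positions migrating neurons into layers, and in the adult cortex, where GABAergic interneurons are the main source of Reelin, it modulates glutamatergic synapses.

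IDOL, encoded by Mylip, is an E3 ubiquitin ligase that marks VLDLR and APOER2 for degradation, so both Reelin receptors are among its targets. The comparison asked whether the RNAs of Reelin and of the genes downstream of its receptors differed when Idol was deleted in neurons. All 10 mice were female, aged 4 months, and carried the 5XFAD transgenes, human genes with familial Alzheimer's disease mutations that cause early amyloid deposition. Of these, 5 were labelled 5XFAD;Neu cKO, in which Camk2a-Cre, active mainly in excitatory neurons of the forebrain, was bred to floxed Idol. The other 5 were littermates labelled 5XFAD, whose titles have WT in the place of cKO. The titles do not say whether WT refers to Idol or to Cre. A legend of the study's single-nuclei figure spells out WT as wild type for Idol. Beyond that legend, whether the 5XFAD littermates carried floxed Idol alleles is not given in the sources used here. One library was made from each cortex sample, and p-values below measure the spread between these libraries.

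The libraries hold reads from the 3′ ends of transcripts, with 4320504 to 7466192 reads on genes in libraries labelled 5XFAD and 5148499 to 7246659 in those labelled 5XFAD;Neu cKO. Values are given as CPM, a count divided by the TMM-scaled number of reads on genes in its library and multiplied by the usual constant. Mylip itself was counted 50, 53, 108, 50 and 45 times in the 5XFAD replicates 1 to 5 and 77, 78, 148, 112 and 50 times in the 5XFAD;Neu cKO replicates. It thus went against the direction of the labels, at 11.2 ± 2.27 CPM (SD, n = 5) and 14.8 ± 4.90 CPM, with groups that overlapped (log2 fold change 0.39, edgeR adjusted p = 0.777). Which part of the gene is floxed is not given in the sources used here, and 3′ reads outside a deleted part would not show a deletion. Each group is therefore named by its label. By qPCR, the study itself reported significantly lower Idol mRNA in the cortex of 5XFAD;Neu cKO mice than in 5XFAD controls. Slc17a7, the vesicular glutamate transporter that marks excitatory cortical neurons, had 186.2 ± 18.6 and 178.1 ± 3.83 CPM (log2 fold change -0.06, edgeR adjusted p = 0.948). Because the tissue was bulk cortex, fewer cells of a type and less RNA per cell cannot be told apart in any value below.

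DAB1 is the point at which the receptors hand the signal to the kinases. The stretch of its coding sequence that holds the tyrosines known to be phosphorylated after Reelin binding is shown because the kinases and adaptors among the members act there. It covers codons 182 to 238 of the 555 codons of the canonical Dab1 transcript, is 171 bases long, and was taken from the GENCODE sequence of that transcript. By the GRCm39 annotation it lies on the plus strand of chromosome 4, across exons 6 to 9 at 104536755 to 104536769, 104537267 to 104537305, 104538795 to 104538860 and 104545580 to 104545630. The capitals mark the 4 tyrosine codons found by their motifs.
Dab1: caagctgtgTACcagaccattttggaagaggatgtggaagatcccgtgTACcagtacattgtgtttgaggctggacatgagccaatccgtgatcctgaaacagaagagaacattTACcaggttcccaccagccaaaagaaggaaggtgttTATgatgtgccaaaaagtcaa
Codons 185 and 198 fall in the motif tyrosine, glutamine, any residue, isoleucine, the form preferred by Src family kinases. Codons 220 and 232 fall in the motif tyrosine, any residue, valine, proline, the form that CRK family adaptors bind once it is phosphorylated. Dab1 has 66 annotated transcripts, and the 3′ reads do not show which of them include these exons or whether the protein was phosphorylated.

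Every member was counted in every library and passed the filter on low counts. None of the 9 differed between the groups at an adjusted p under 0.05 (quasi-likelihood test of edgeR, Benjamini-Hochberg adjusted), against 42 of 19268 genes tested, or 0.218%. At an unadjusted p under 0.05 there were 2 of 9 members, Src and Crk, against 7.95% of all genes, and DESeq2 also called 0 members. None of the 9 had groups without overlap, against 1.3% of all genes. The fitted value was higher in libraries labelled 5XFAD;Neu cKO for 7 members and lower for Reln and Rapgef1, with a median log2 fold change of 0.13, where 49.9% of all genes were higher and their median was -0.00056. For 7 of the 9 members the 95% interval lay inside a 1.5-fold change in either direction, and for Src and Nck2 it reached beyond. The CPM of the 9 genes summed to 671.9 to 730.9 in libraries labelled 5XFAD and to 730.2 to 802.8 in those labelled 5XFAD;Neu cKO. Reads on Pafah1b1 were the most numerous and weigh most in that sum.

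**Figure D1:**
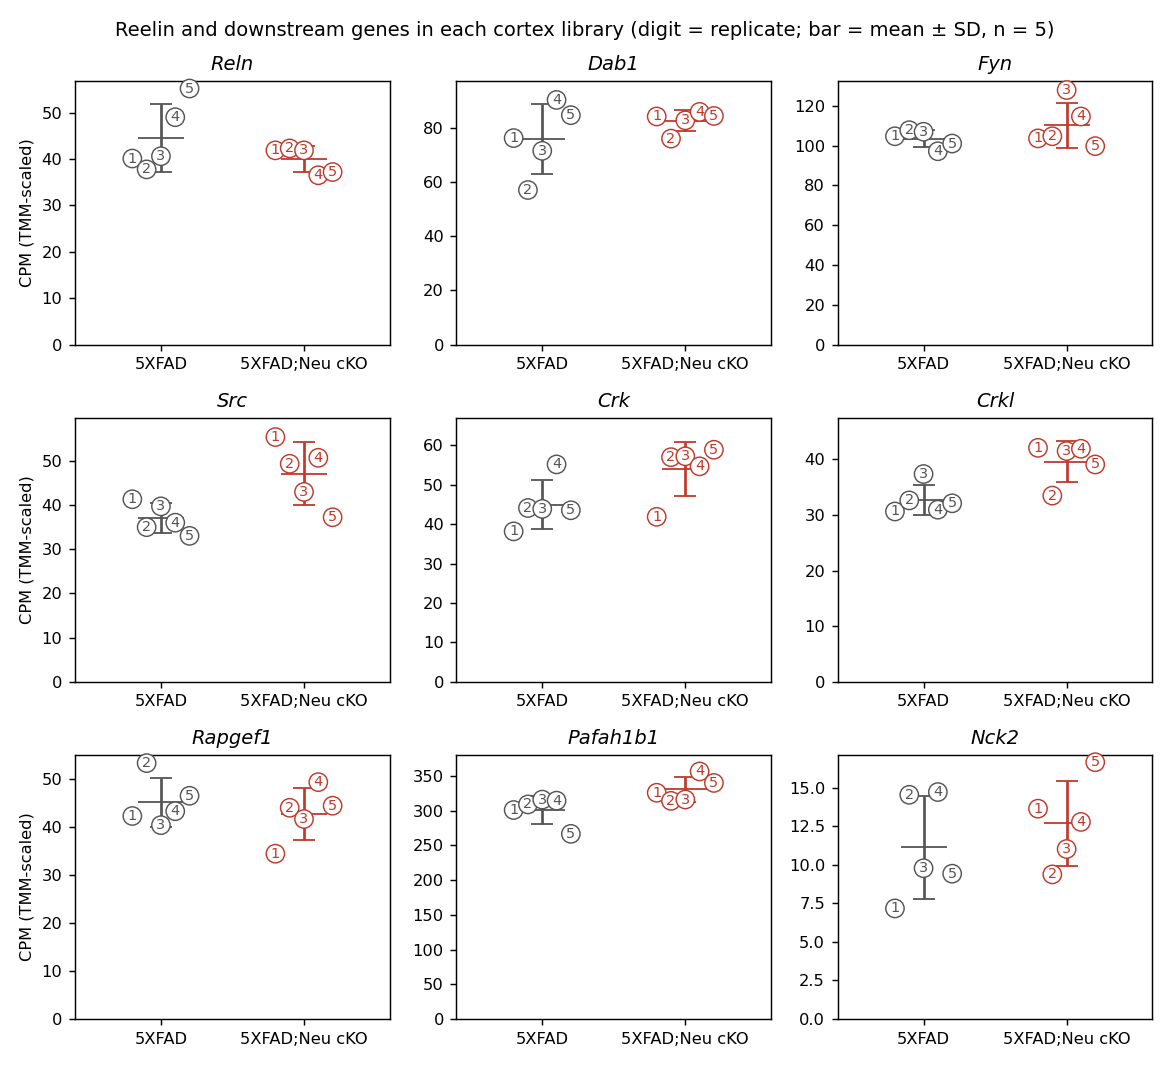
CPM (TMM-scaled, linear axes from 0) of the 9 genes in each library, drawn as circles holding the replicate number, with bars for the mean ± SD of 5 libraries per group. The groups overlap in all 9 panels. For Src, Crkl and Pafah1b1, 4 of the 5 libraries labelled 5XFAD;Neu cKO lie above every 5XFAD library. The share of all genes with such a placing was not counted.

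Reln encodes the ligand and occupies chromosome 5, from 22089452 to 22549700 on the minus strand of the GRCm39 build (ENSMUSG00000042453). The 5XFAD replicates 1 to 5 had 40.1, 37.8, 40.6, 49.0 and 55.2 CPM, and the 5XFAD;Neu cKO replicates 41.9, 42.3, 41.9, 36.5 and 37.2 CPM. The 5XFAD replicates 4 and 5 were above all libraries labelled 5XFAD;Neu cKO, while the other 3 lay inside their range. The means were 44.5 ± 7.33 and 40.0 ± 2.84 CPM (SD, n = 5 each), a log2 fold change of -0.16 (SE 0.14, 95% interval -0.43 to 0.12, edgeR adjusted p = 0.876). Without 5XFAD replicate 5 the value was -0.07. The coefficient of variation of Reln was 16.4% among libraries labelled 5XFAD and 7.11% among those labelled 5XFAD;Neu cKO, where counting alone would give 6.67% and 6.39%. The latter group thus varied by little more than counting error, and the difference in spread was not tested.

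The cells that make Reelin in adult cortex were looked at through 9 markers of Reelin-expressing interneurons, among them Gad1, Gad2 and Slc32a1 for GABA synthesis and loading, and Lamp5 and Ndnf for cells of the superficial layers. Of these, 4 were higher and 5 lower, and 0 of 9 passed the adjusted threshold in edgeR. At an unadjusted p under 0.05 there was 1 of 9 (Gad1), against 7.95% of all genes. The summed level of the 9 markers was 861.3 to 1031 CPM in libraries labelled 5XFAD and 857.5 to 1067 CPM in those labelled 5XFAD;Neu cKO. Id2, with means of 287.8 and 291.3 CPM, weighed most in that sum. Bulk tissue does not show which cells its reads came from. Gad1 had 160.1 ± 30.8 and 187.2 ± 20.8 CPM, a log2 fold change of 0.22 (SE 0.10, edgeR adjusted p = 0.553), opposite in sign to that of Reln. Slc32a1 had the same sign as Reln, with a log2 fold change of -0.22 (SE 0.12, edgeR adjusted p = 0.719). Cajal-Retzius cells, the source of Reelin before birth, were looked at through 6 markers, of which 2 were higher and 4 lower. Of these 6, 0 passed the adjusted threshold in edgeR and 1 (Lhx1) had an unadjusted p under 0.05, against 7.95% of all genes. Lhx1 was counted 0 to 15 times per library, with 1.01 ± 1.33 and 0.0742 ± 0.102 CPM. Trp73, Lhx5, Ebf3 and Nhlh2 had means of 0.112 to 0.823 CPM in libraries labelled 5XFAD and 0.289 to 0.645 CPM in those labelled 5XFAD;Neu cKO. All 6 markers summed to 11.2 to 23.2 and 9.59 to 21.2 CPM, most of it Calb2, which interneurons also express. In a description with no test, Pearson's r between Reln and the interneuron markers with over 10 CPM ran from -0.29 for Ndnf to 0.53 for Slc32a1 across the 10 libraries. Without the 2 libraries farthest from the median it was 0.33 for Ndnf and 0.26 for Slc32a1, and its lowest value was -0.57, for Id2.

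The receptors stand between Reelin and the members downstream. Lrp8, which encodes APOER2, had 85.5, 82.8, 94.5, 71.6 and 92.2 CPM in the 5XFAD replicates 1 to 5 and 68.4, 59.2, 73.4, 78.9 and 63.1 CPM in the 5XFAD;Neu cKO replicates. Every 5XFAD library but replicate 4 lay above every library labelled 5XFAD;Neu cKO. The 95% interval of its log2 fold change was -0.54 to -0.09, but the edgeR p of 0.00702 became 0.402 after adjustment over all genes, so the difference did not pass the threshold. Vldlr had 123.3, 129.0, 109.9, 110.9 and 123.4 CPM against 138.3, 123.2, 120.0, 126.0 and 100.3 CPM, with an interval of -0.17 to 0.22. The lowest and the highest Vldlr values were both in libraries labelled 5XFAD;Neu cKO. These are RNA levels, and the degradation of the receptors by IDOL takes place at the protein, which was not measured in these libraries. By Western blot of cortex, the study itself reported significantly more APOER2 and VLDLR protein in 5XFAD;Neu cKO mice than in 5XFAD mice. Its mass spectrometry of cortex also had both receptors as raised.

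Dab1, the adaptor, lies on chromosome 4 from 103476556 to 104602041 on the plus strand (ENSMUSG00000028519). Its libraries had 76.2, 57.0, 71.5, 90.2 and 84.6 CPM in the 5XFAD replicates and 84.1, 76.0, 82.7, 85.8 and 84.3 CPM in the 5XFAD;Neu cKO replicates. All 5 values of the latter group lay inside the range of the former, whose replicate 2 was lowest and replicate 4 highest. The means were 75.9 ± 12.8 and 82.6 ± 3.86 CPM, a log2 fold change of 0.12 (SE 0.11, 95% interval -0.11 to 0.35, edgeR adjusted p = 0.889). Leaving out 5XFAD replicate 2 gave 0.04 and leaving out replicate 4 gave 0.19. As for Reln, the spread of Dab1 was wider among libraries labelled 5XFAD, with a coefficient of variation of 16.9% against 4.68%, where counting alone would give 5.15% and 4.45%.

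FYN and SRC phosphorylate DAB1. Fyn lies on chromosome 10 from 39244851 to 39442227 on the plus strand (ENSMUSG00000019843), and Src on chromosome 2 from 157260355 to 157313782 on the plus strand (ENSMUSG00000027646). Fyn had 104.6, 107.7, 106.9, 97.1 and 101.0 CPM in the 5XFAD replicates and 103.6, 104.7, 127.9, 114.6 and 99.7 CPM in the 5XFAD;Neu cKO replicates. Of the latter, replicates 3 and 4 lay above the 5XFAD range, and the other 3 lay inside it. The log2 fold change was 0.09 (SE 0.10, 95% interval -0.11 to 0.29, edgeR adjusted p = 0.916), and without 5XFAD;Neu cKO replicate 3 it was 0.03.

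Src had the lowest p of the 9 members. It had 41.3, 35.0, 39.7, 35.98 and 33.0 CPM in the 5XFAD replicates and 55.3, 49.3, 42.9, 50.6 and 37.2 CPM in the 5XFAD;Neu cKO replicates. Of the latter, 4 of 5 were above every 5XFAD library, and replicate 5 lay among them. The means of 37.0 ± 3.42 and 47.1 ± 7.08 CPM gave a fold of 1.27 (95% interval 1.05 to 1.54) and a log2 fold change of 0.34 (SE 0.14). The edgeR p of 0.0161 ranked 667 among 19268 genes and became 0.465 after adjustment, and the exact two-sided permutation test of the 5 against 5 libraries gave p = 0.0317 before any correction for the 9 members tested. With DESeq2 the adjusted p of Src was 0.258, the lowest that any member had under any alternative.

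CRK and CRKL are sister adaptors with an SH2 domain that reads phosphorylated DAB1. Crk lies on chromosome 11 from 75570085 to 75597737 on the plus strand (ENSMUSG00000017776). It had 38.2, 44.1, 43.9, 55.2 and 43.5 CPM in the 5XFAD replicates and 41.9, 57.0, 57.2, 54.7 and 58.9 CPM in the 5XFAD;Neu cKO replicates. Replicate 1 of the latter stood well below its 4 companions, and 5XFAD replicate 4 stood at their level. The log2 fold change of Crk was 0.26 (SE 0.13, edgeR p = 0.0495, adjusted p = 0.628; exact permutation p = 0.119).

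Crkl lies on chromosome 16 from 17269821 to 17305298 on the plus strand (ENSMUSG00000006134). It had 30.6, 32.6, 37.4, 30.9 and 32.1 CPM in the 5XFAD replicates and 42.1, 33.5, 41.5, 41.9 and 39.1 CPM in the 5XFAD;Neu cKO replicates. Here 4 of 5 libraries labelled 5XFAD;Neu cKO lay above the whole 5XFAD group, and replicate 2 lay inside it. The log2 fold change of Crkl was 0.27 (SE 0.14, 95% interval -0.01 to 0.56, edgeR adjusted p = 0.658). The exact two-sided permutation test gave p = 0.0159 before correction for the 9 members tested, the lowest of the members on that test. Src, Crk and Crkl thus had the 3 highest fold changes of the 9, each between 1.20 and 1.27, and none passed the threshold.

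Rapgef1 encodes the exchange factor that CRK and CRKL carry to RAP1, and lies on chromosome 2 from 29509711 to 29631005 on the plus strand (ENSMUSG00000039844). It had 42.2, 53.3, 40.3, 43.2 and 46.5 CPM in the 5XFAD replicates and 34.4, 44.0, 41.6, 49.3 and 44.4 CPM in the 5XFAD;Neu cKO replicates. The groups were interleaved over most of this range. Its log2 fold change was -0.07 (SE 0.13, 95% interval -0.34 to 0.20, edgeR adjusted p = 0.966), and it was -0.01 without 5XFAD;Neu cKO replicate 1 or without 5XFAD replicate 2. Its sign was opposite to that of Crk and Crkl, the adaptors that bind its product.

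Pafah1b1 encodes LIS1, which binds phosphorylated DAB1 and regulates the dynein motor, and lies on chromosome 11 from 74564774 to 74615723 on the minus strand (ENSMUSG00000020745). It was the most deeply counted member, with 1188 to 2408 reads per library and counting errors of 2.56% and 2.22% in the 2 groups. It had 301.0, 309.0, 316.0, 314.5 and 266.6 CPM in the 5XFAD replicates and 325.9, 314.2, 316.1, 356.5 and 340.0 CPM in the 5XFAD;Neu cKO replicates. The groups met at 314.2 to 316.0 CPM, where 1 library labelled 5XFAD;Neu cKO lay among the highest of the 5XFAD libraries. The log2 fold change was 0.13 (SE 0.08, 95% interval -0.03 to 0.29, edgeR adjusted p = 0.745), and the exact two-sided permutation test gave p = 0.0317 before correction for the 9 members tested. Under DESeq2's size factors the groups of Pafah1b1 no longer overlapped.

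Nck2 encodes an SH2 and SH3 adaptor that links DAB1 to the actin cytoskeleton, and lies on chromosome 1 from 43483739 to 43609680 on the plus strand (ENSMUSG00000066877). It was counted only 37 to 116 times per library, so counting alone gives errors of 13.7% and 11.6%. Its libraries had 7.17, 14.5, 9.78, 14.7 and 9.43 CPM in the 5XFAD replicates and 13.6, 9.38, 11.0, 12.8 and 16.7 CPM in the 5XFAD;Neu cKO replicates. The groups were interleaved over nearly the whole range. The log2 fold change of 0.20 had an SE of 0.25 and an interval of -0.31 to 0.70 (edgeR adjusted p = 0.940), so a difference of 1.5-fold in Nck2 was not excluded. The spread between libraries, with coefficients of variation of 30.1% and 21.7%, was larger than counting alone gives.

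**Figure D2:**
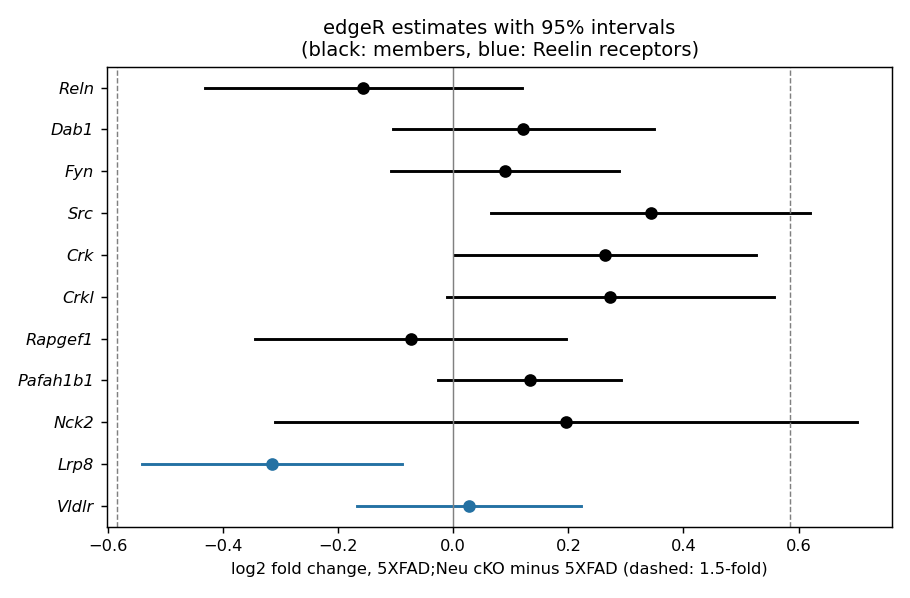
Log2 fold change of 5XFAD;Neu cKO minus 5XFAD with 95% intervals from edgeR for the 9 genes (black) and the receptors Lrp8 and Vldlr (blue), with dashed lines at a 1.5-fold change. The intervals of Src and Nck2 cross the upper dashed line, and none of these genes had an adjusted p under 0.05.

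Some members have close relatives or overlapping genes whose reads could have been mixed with theirs. Over the last 500 bases of the transcripts the longest identical run was 11 bases between Src and Fyn, 10 between Src and Yes1, 9 between Fyn and Yes1, 11 between Crk and Crkl, and 10 between Nck1 and Nck2. The 3′ end of Fyn is overlapped on the other strand by Gm16364, which was counted at most 7 times in a library, and the 3′ end of Crkl by Gm59875, which has no row in the files used here. The strand setting of the counting is not given in the sources used here, so reads of Gm59875 cannot be told from those of Crkl. Gm16364 was counted in its own right. Whether reads on both it and Fyn were set aside as ambiguous is not known. Pafah1b1 overlaps 0 annotated genes.

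The members were compared with each other over the 10 libraries. Of the 36 pairs, 22 had a positive and 14 a negative Pearson's r of log2 CPM, and 0 passed an adjusted p under 0.05 (100000 permutations, Benjamini-Hochberg over the 36 pairs). Reln and Pafah1b1 had the lowest r at -0.78 (permutation p = 0.0103, adjusted p = 0.344), with a Spearman's rho of -0.53 (p = 0.124). This r was -0.73 after each group was centred and -0.58 without the 2 libraries farthest from the median. Crkl and Pafah1b1 had the highest r at 0.67 (permutation p = 0.0191, adjusted p = 0.344) and a rho of 0.84 (p = 0.00367). Once each group was centred this r was 0.36, and it was 0.53 without the 2 libraries farthest from the median. The labels give no batch within which these relations could be recomputed.

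**Figure D3:**
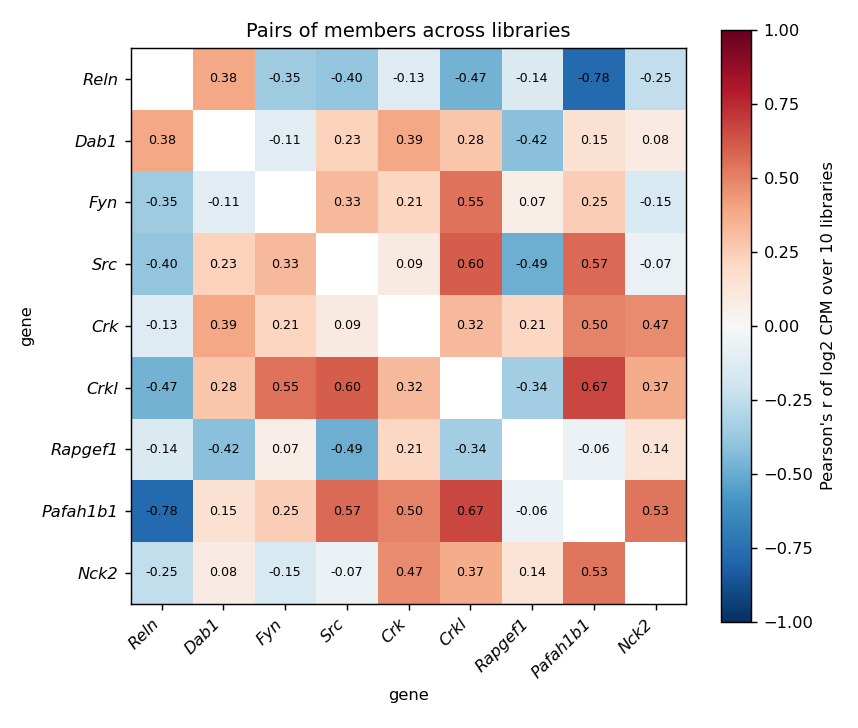
Pearson's r of log2 CPM for each pair of the 9 genes over 10 libraries, coloured from -1 to 1 and printed in each cell. Reln has negative values with 7 of its 8 partners, the exception being Dab1 at 0.38, and no pair passed an adjusted p under 0.05.

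Reln itself was most like Galntl6, Nebl, Gm44675, Gm48887 and Psat1 among the 8840 genes with a mean of 10 CPM or more, by Pearson's r over the 10 libraries. The values were 0.86 to 0.87, chosen as the highest of many and therefore given with no test. Without the 2 libraries farthest from the median the r with Galntl6 stayed at 0.86 and with Gm44675 at 0.88, and that with Nebl was 0.47. None of the 5 passed the threshold between the groups, and their log2 fold changes ran from -0.49 for Gm44675 to -0.08 for Galntl6.

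Around the 9 members, 75 other genes of the Reelin pathway were listed by role, of which 74 passed the filter on low counts. None passed the adjusted threshold in edgeR, and 10 of the 74 had an unadjusted p under 0.05, against 7.95% of all genes. In libraries labelled 5XFAD;Neu cKO 33 were higher and 41 lower, and their median log2 fold change was -0.04. Among 9 receptors and surface partners, 6 were higher and 3 lower with a median of 0.03. They ranged from Itgb1, an integrin subunit that Reelin can bind, at -0.32 (SE 0.12, edgeR adjusted p = 0.445) to Efnb3, an ephrin ligand, at 0.20 (adjusted p = 0.802).

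Of the 7 tested Src family kinases and regulators, 2 were higher and 5 lower, with a median of -0.17. Yes1, a kinase close to Src and Fyn, had a log2 fold change of 0.12 (SE 0.26, edgeR adjusted p = 0.974). Lyn, a kinase that microglia express, had 14.9 ± 7.14 and 9.82 ± 2.37 CPM and a log2 fold change of -0.59 (SE 0.27, edgeR adjusted p = 0.547), opposite in sign to Src. Without 5XFAD replicate 2 the value of Lyn was -0.32 (edgeR adjusted p = 0.946). All 10 microglial markers were also lower in libraries labelled 5XFAD;Neu cKO. Of these 10, 5 passed the adjusted threshold in edgeR, against 0.218% of all genes. The microglial markers summed to 343.1 to 516.7 CPM against 259.9 to 315.6 CPM. Their part in the value of Lyn was not tested.

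In the RAP1 and cadherin arm, which anchors migrating neurons and acts below Rapgef1, 3 of 9 genes were higher and 6 lower, with a median of -0.05. Cdh2, N-cadherin, had 56.0 ± 7.31 and 46.1 ± 4.33 CPM, a log2 fold change of -0.28 (SE 0.13, edgeR adjusted p = 0.556), and Rap1b, a RAP1 GTPase, one of 0.16 (SE 0.15, adjusted p = 0.896). In the PI3K, AKT and GSK3 arm, through which Reelin restrains phosphorylation of tau, 6 of 15 genes were higher and 9 lower with a median of -0.05. Its range ran from Limk1, a kinase that inactivates cofilin, at -0.34 (SE 0.17, edgeR adjusted p = 0.617) to Gsk3a, a tau kinase, at 0.20 (SE 0.13, adjusted p = 0.773). Limk1 was at -0.18 without 5XFAD replicate 2, and Gsk3a at 0.12 without 5XFAD;Neu cKO replicate 4. Cdk5, which acts in parallel to Reelin in cortical layering, and its activators Cdk5r1 and Cdk5r2 had log2 fold changes of 0.12, 0.05 and 0.00.

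Most partners of LIS1 had values below 0, while that of Pafah1b1 was above. Of 13 genes of dynein, dynactin and their regulators, 4 were higher and 9 lower with a median of -0.05. At an unadjusted p under 0.05 there were 2 of 13, against 7.95% of all genes. Dync1h1, the dynein heavy chain, singled out after its values were seen, had 328.8 to 429.1 CPM in libraries labelled 5XFAD and 255.1 to 319.3 CPM in those labelled 5XFAD;Neu cKO, without overlap. It was 1 such gene among the 74 tested, close to the 1.3% of all genes. Its means of 357.6 ± 41.6 and 288.6 ± 26.5 CPM gave a log2 fold change of -0.31 (SE 0.08, edgeR adjusted p = 0.129; exact permutation p = 0.00794, the smallest that 5 against 5 can give). The adjusted p of Dync1h1 was 0.0312 with DESeq2, while in edgeR it ran from 0.0607 to 0.515 with single libraries left out, the highest being without 5XFAD replicate 2. Dctn1, the large dynactin subunit, had a value of -0.31 (SE 0.13, edgeR adjusted p = 0.515), and Dync1li1, a light intermediate chain, one of 0.16 (SE 0.11, adjusted p = 0.817).

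Among 9 genes of DAB1 turnover, 6 were higher and 3 lower, and the median of 0.14 was close to that of the members. The list holds the CUL5 ubiquitin ligase and its partners, which degrade phosphorylated DAB1, and also Cbl, a separate ubiquitin ligase. Rnf7, the RING subunit of the CUL5 ligase, had 20.5 ± 6.66 and 26.6 ± 4.90 CPM, a log2 fold change of 0.36 (SE 0.19, edgeR adjusted p = 0.671). Socs6, a substrate adaptor, had one of -0.18 (SE 0.21, edgeR adjusted p = 0.924). Rnf7 was at 0.20 without 5XFAD replicate 2, and Socs6 at -0.04 without 5XFAD replicate 4. The CPM of the 9 genes summed to 551.6 to 633.3 in libraries labelled 5XFAD and 641.4 to 665.7 in those labelled 5XFAD;Neu cKO, without overlap. In every other role list the sums of the 2 groups overlapped, and how often sums of other genes separate was not tested. Singly, 0 of the 9 passed the threshold and 0 had groups without overlap. At an unadjusted p under 0.05 there was 1 of 9, against 7.95% of all genes. Proteases that cleave Reelin were counted at low levels: Plat, tissue plasminogen activator, had 10.5 ± 3.82 and 16.2 ± 3.76 CPM (log2 fold change 0.62, SE 0.25, edgeR adjusted p = 0.462). Adamts3, the main Reelin-inactivating protease of the cortex, had 6.39 ± 2.75 and 4.35 ± 1.01 CPM (log2 fold change -0.56, SE 0.37, edgeR adjusted p = 0.802). The 4 synaptic targets, the NMDA receptor subunits Grin1, Grin2a and Grin2b and the scaffold Dlg4, had log2 fold changes of -0.11 to 0.01.

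**Figure D4:**
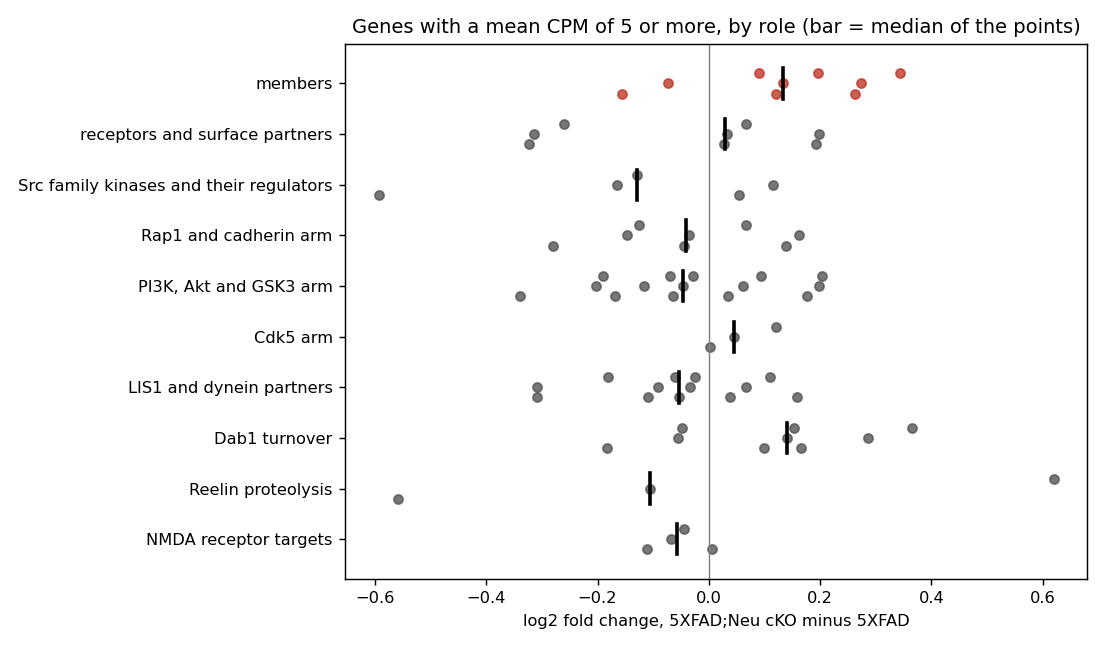
Log2 fold change of 5XFAD;Neu cKO minus 5XFAD for the 9 genes (red, top row) and the other Reelin pathway genes by role (grey), each point a gene with a mean of 5 CPM or more and each bar the median of the points in its row. Rows of 4 or more genes hold points on both sides of 0, and the widest values are Plat at 0.62 and Lyn at -0.59.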

How the data were processed

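Cortical RNA of 10 mice was made into QuantSeq 3′ libraries by the authors, who sequenced single reads, trimmed them, aligned them with STAR (2.7.3a in the submitters' processing notes) to GRCm39 and counted reads per gene with HTSeq (0.9.1 in the notes, while the study's methods give another version). The values they deposited are raw counts per gene and library. Rows that name no gene entered neither library sizes nor tests: reads on no gene were 31.3% to 39.9% and ambiguous reads 0.428% to 0.467%. Depth was 4320504 to 7466192 reads on genes per library.

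Of 53700 gene identifiers, 52610 were named from the GENCODE annotation of GRCm39, a later release than the authors', used for names and places. Transcript sequences were taken from the same GENCODE release. The filter kept genes counted over 10 times in all libraries together, and the 19268 kept were fitted in R 4.3.3 with edgeR 4.0.16 (TMM, estimateDisp, glmQLFit, glmQLFTest, group as the only term), with Benjamini-Hochberg adjustment over all of them and a threshold of 0.05. The common dispersion corresponded to a biological coefficient of variation of 0.281. Fold changes are 5XFAD;Neu cKO over 5XFAD. Log2 CPM had a prior count of 2. Single genes were also compared by an exact two-sided permutation test over 252 relabellings. That test was run on the listed genes and Mylip only, so no share over all genes stands beside its p-values. Intervals for counting cover counting error only. The steps were tested on simulated counts.

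The members and lists were chosen with earlier results of these data known, and lists get counts and medians but no test. Pathway genes named are Lrp8, Vldlr and, for each role list, every gene past the threshold and the highest and lowest fold change among genes with 5 CPM or more. Others are named as examples of a list, and Dync1h1, Gad1, Slc32a1, Id2, Lhx1 and Calb2 were chosen after their values were seen. No 2 libraries of a group agreed within sampling noise (lowest chi-square per degree of freedom 5.87). Alternatives were DESeq2 1.42.0, its size factors, filterByExpr, no filter, a robust fit, leaving out mitochondrial genes, a prior count of 0.5, the replicate number as a block, and each library left out in turn. Some genes on the lists are not reported here.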

Additional observations from a re-analysis of the deposited data

Results flagged for a closer look

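For Crk, an adaptor that binds phosphorylated DAB1, the library of 5XFAD;Neu cKO replicate 1 had 41.9 CPM, far below the other 4 libraries of its group, which had 54.7 to 58.9 CPM. Without it the log2 fold change of Crk was 0.34 (edgeR adjusted p = 0.444). For Cdk5, the library of 5XFAD replicate 4 had 49.0 CPM, far below the other 4 libraries of its group at 58.6 to 62.1 CPM. These 2 were found among 62 groups of 5 libraries by the gap to the nearest library as a share of the range, where chance alone would mark about 5% of groups.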

How the results depend on the processing

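The count of members past the threshold was 0 under every alternative run, and all 153 fits of single members kept their direction, with a lowest adjusted p of 0.258 (Src, DESeq2). DESeq2 gave no adjusted p for Nck2. The count over all genes was 42, and it was 73 with DESeq2, 103 with no filter, and 26 (without 5XFAD replicate 2) to 72 (without 5XFAD;Neu cKO replicate 1) with single libraries left out. It was also 27 without 5XFAD;Neu cKO replicate 4 and without replicate 5. Same-numbered libraries did not deviate together (r from -0.05 to 0.02, none best matched by its own number). No pairing of the mice by number was thus seen, but a weak one could go unseen in such a check. With the replicate number as a block, 112 genes, 0 members and 1 other pathway gene passed. That gene was Dync1h1 (adjusted p 0.037), and DESeq2 also called 1. Members without overlap numbered 1 under DESeq2's size factors (Pafah1b1) and 0 to 2 with single libraries left out: Crkl without 5XFAD replicate 3, Crkl and Pafah1b1 without 5XFAD;Neu cKO replicate 2, and Src without 5XFAD;Neu cKO replicate 5. Signs turned in 13 of 527 fits of single genes: Vldlr (-0.023 to 0.090), Cdk5r2 (-0.047 to 0.073) and Grin2a (-0.051 to 0.045, and -0.00075 under the block). Some members moved by over 1.5 times without being called: Nck2 from 0.07 (without 5XFAD replicate 1) to 0.32, Reln from -0.21 to -0.07, Dab1 from 0.04 to 0.19, Fyn from 0.03 to 0.12 and Rapgef1 from -0.13 to -0.01. Among other pathway genes, leaving out 5XFAD replicate 2 moved Efnb3 to 0.09, Yes1 to 0.01, Rap1b to 0.27, Lyn to -0.32, Limk1 to -0.18, Rnf7 to 0.20, Socs6 to -0.28 and Dlg4 to -0.04. Yes1 was also 0.21 and Adamts3 -0.35 without 5XFAD replicate 4, Rap1b 0.06 without 5XFAD;Neu cKO replicate 5, Cdk5 0.06 without 5XFAD replicate 4, and Dync1li1 0.10 without 5XFAD replicate 1. The cause of these shifts was not tested.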

Other observations

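Markers of other cells and regions were counted beside the Reelin genes. Of 7 astrocyte markers 6 were lower and 1 was higher in libraries labelled 5XFAD;Neu cKO. Of these 7, 1 passed the edgeR threshold, against 0.218% of all genes. It was Gfap, which fell by 0.88 on the log2 scale (edgeR adjusted p = 0.00202). All 7 oligodendrocyte markers were lower with a median of -0.28, and 0 passed (lowest adjusted p 0.0662). Of 6 endothelial markers 3 were higher and 3 lower, and 0 passed. Markers of striatum summed to 649.7 to 858.0 CPM in libraries labelled 5XFAD and 586.9 to 852.7 CPM in those labelled 5XFAD;Neu cKO, those of dentate gyrus and CA fields to 232.1 to 257.0 and 220.7 to 245.8 CPM, those of olfactory bulb to 5.78 to 10.6 and 6.73 to 14.4 CPM, and those of cerebellum to 10.5 to 32.6 and 9.09 to 19.5 CPM. None of these 4 region lists had a gene past the threshold in edgeR or with an unadjusted p under 0.05. Their part in the values of the Reelin genes was not tested.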
